A study of Homo sapiens with 2 samples.

Results

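Of the 6 miRNAs of basal or stromal prostate cells described here, miR-221-3p was the member with a signal clear of the blank spots in 22Rv1 cells. The signals of miR-205-5p, miR-143-3p, miR-145-5p and miR-222-3p could not be told from blank spots on either array, and miR-31-5p lay at the limit. The members were picked by name, because they mark basal or stromal cells of the prostate or are reported as low in prostate cancer, and they are 6 of the 2565 miRNA probes on the array. 22Rv1 is an established human prostate cancer cell line, grown in RPMI1640 medium. The control cells were not treated, the other cells received 25 µM luteolin, a plant flavone, and both were taken at 48 h. Total RNA from each was labelled with Cy5 and measured on 1 single-colour Toray 3D-Gene array, on which each miRNA has 1 spot. The arrays of the control cells and of the luteolin-treated cells are called the untreated and the treated array. There was no replicate, so no test between the conditions was possible. The values below describe these 2 arrays, whose number limits the precision, and each ± is a standard error between spots within an array.

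The normal prostate gland has an outer layer of basal cells, an inner layer of secretory luminal cells and a surrounding stroma rich in smooth muscle. miR-205 is a miRNA of basal epithelial cells that restrains the mesenchymal factors ZEB1 and ZEB2. miR-143 and miR-145 come from 1 transcript and are miRNAs of smooth muscle and fibroblasts, where serum response factor and myocardin drive them. miR-221 and miR-222 also share a transcript and repress the cell cycle inhibitor p27, encoded by CDKN1B. miR-31 is an epithelial miRNA with many targets, and its loss has been reported in prostate cancer.

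The mature sequences are shown because the members fall into seed groups and because presence is a statement about 1 probe per sequence. Capitals mark the seed, bases 2 to 8 from the 5′ end, which carries most of a miRNA's target recognition. All 6 were found in RefSeq, from which sequences and coordinates on GRCh38.p14 are taken. The basal epithelial miRNAs miR-205-5p, at chr1:209432166-209432187 on the plus strand inside the long non-coding RNA MIR205HG, and miR-31-5p, at chr9:21512158-21512178 on the minus strand inside MIR31HG, have unrelated seeds.
miR-205-5p: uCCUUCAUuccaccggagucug
miR-31-5p: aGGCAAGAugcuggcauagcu
The smooth muscle pair lies on the plus strand inside the long non-coding RNA CARMN, with 1622 bases between the hairpins. miR-143-3p is at chr5:149428978-149428998 and miR-145-5p at chr5:149430661-149430683.
miR-143-3p: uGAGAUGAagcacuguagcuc
miR-145-5p: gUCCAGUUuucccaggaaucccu
The third group lies on the minus strand of the X chromosome inside MIR222HG, with 748 bases between the hairpins. miR-221-3p is at chrX:45746180-45746202 and miR-222-3p at chrX:45747036-45747056.
miR-221-3p: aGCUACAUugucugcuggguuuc
miR-222-3p: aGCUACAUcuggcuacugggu
miR-221-3p and miR-222-3p have the same seed. They share their first 8 bases, the longest run common to both, and 11 of the 21 positions of miR-222-3p when aligned from the 5′ end.

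Presence was judged against spots that should bind no miRNA. Each array held 320 blank spots and 32 Negative Control spots of 3 kinds. The blank limit, set 2 SD above a blank mean from which the outer 5% at each end were trimmed, was 84.0 units on the untreated array and 67.3 on the treated array, and the authors list a normalized value where the raw signal exceeds it. The SD is that of the trimmed spots, here and below, and is smaller than that of all blank spots. The blank limit is permissive. On each array 22 of the 320 blank spots (6.88%) and 17 of the 32 Negative Control spots passed it, including 15 of the 16 spots of Negative Control 1 on the untreated array and 12 of 16 on the treated array. The highest Negative Control spot, at 93.7 units on the untreated array and 69.4 on the treated array, was therefore used as a stricter limit. By the blank limit 1 of 6 members was present on the untreated array, where 31.6% of all miRNAs were. After luteolin it was 2 of 6, against 38.4% of all miRNAs. Above the highest Negative Control spot there were 0 of 6 on the untreated array (12.1% of all miRNAs) and 1 of 6 on the treated array (23.1%). On both arrays together it was 1 of 6 by the blank limit, against 27.3% of all miRNAs. A set of 6 is too small to read these counts against those shares.

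**Figure D1:**
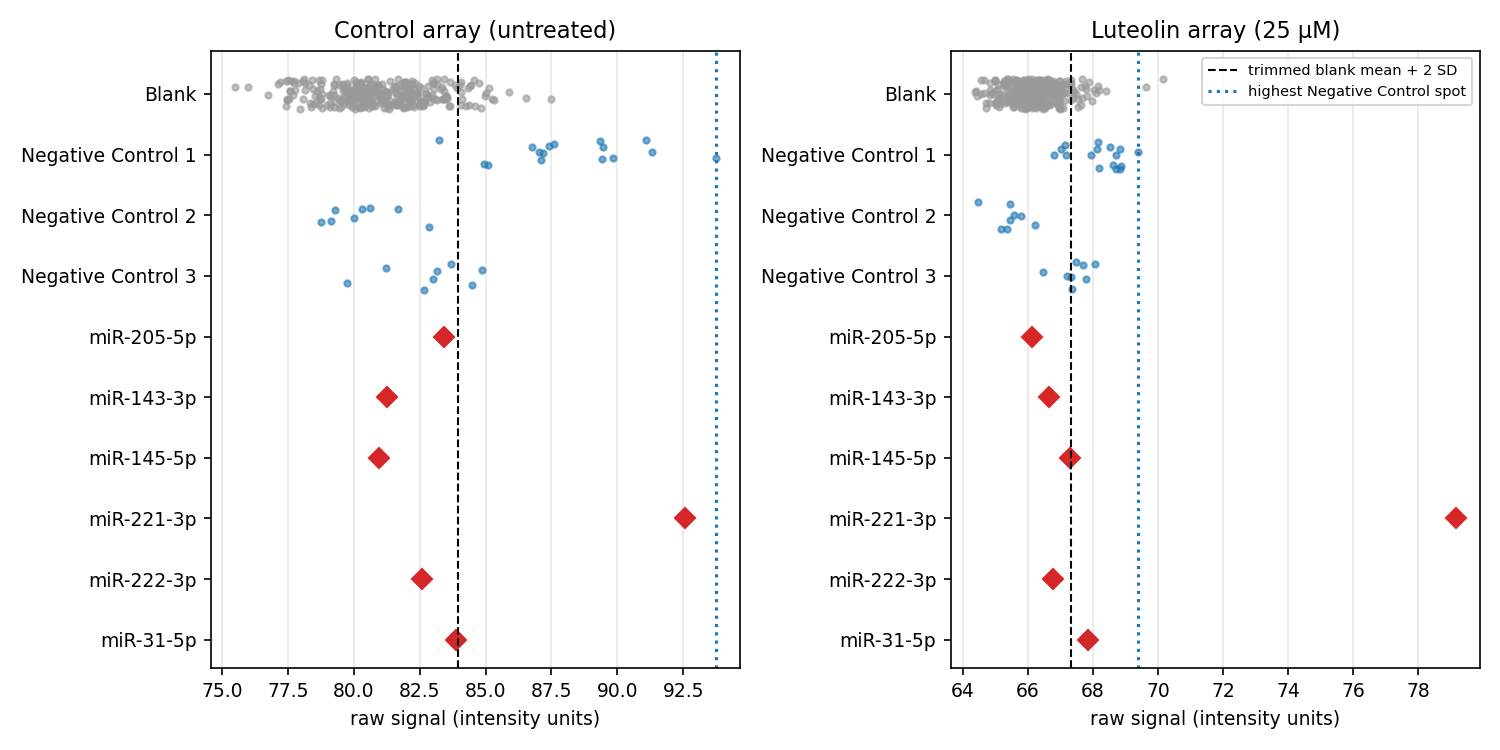
Raw signal in intensity units (x axis) of every blank spot (grey), every Negative Control spot (blue) and each of the 6 miRNAs (red diamonds, 1 spot each) on the untreated array and on the treated array. The dashed line is the blank limit and the dotted line the highest Negative Control spot; miR-221-3p stands at 92.6 and 79.1 units, and the other members lie among the blank and Negative Control spots.

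hsa-miR-205-5p (MIMAT0000266), the basal miRNA of the set, gave a raw signal of 83.4 units on the untreated array and 66.1 on the treated array. On the untreated array it was brighter than 289 of 320 blank spots, but it missed the blank limit by 0.511 units, and 1 of 16 Negative Control 1 spots was dimmer. After luteolin it stood at the blank mean, 0.03 blank SDs below it, with 158 of 320 blank spots dimmer. Neither array thus held a signal for miR-205-5p beyond the spread of empty spots.

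hsa-miR-31-5p (MIMAT0000089) gave 83.9 units on the untreated array and 67.9 on the treated array. It missed the blank limit by 0.0663 units on the first and passed it by 0.511 on the second, where the authors list it at 7.84 on their normalized scale. After luteolin, 9 of the 320 blank spots and 13 of the 32 Negative Control spots were at least as bright. The change from absent to listed therefore happened inside the range of the control spots on both arrays. For miR-31-5p no fold difference is defined.

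The stromal pair was at the level of the blanks. hsa-miR-143-3p (MIMAT0000435) gave 81.3 units on the untreated array and 66.6 on the treated array, 0.20 and 0.82 blank SDs above the blank means. hsa-miR-145-5p (MIMAT0000437) gave 80.9 and 67.3 units, at 0.03 SDs below and 1.91 SDs above the blank means. After luteolin it missed the blank limit by 0.0517 units, with 26 blank spots at least as bright. None of these 4 spots was above the median Negative Control 1 spot of its array, which stood at 87.5 units on the untreated array and 68.3 on the treated array.

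hsa-miR-221-3p (MIMAT0000278) gave 92.6 units on the untreated array and 79.1 on the treated array. On both arrays it was brighter than all 320 blank spots and than all 8 spots each of Negative Control 2 and Negative Control 3. On the treated array it also exceeded all 16 spots of Negative Control 1, and stood 22.0 blank SDs above the blank mean. On the untreated array it stood 7.81 blank SDs above the blank mean and exceeded 15 of the 16 Negative Control 1 spots, with 1 spot, at 93.7 units, above it. Presence on the untreated array thus rests on which Negative Control spots are counted. Without that single highest spot, a choice made after its value was seen, the limit would be 91.3 units and miR-221-3p would pass it. A limit of 2 SD above the mean of the Negative Control 1 spots was 93.5 units, and miR-221-3p missed it. That limit was also chosen after the data were seen.

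hsa-miR-222-3p (MIMAT0000279), which shares its seed and its host transcript with miR-221-3p, gave 82.6 units on the untreated array and 66.8 on the treated array, 1.07 and 1.02 blank SDs above the blank means. It passed neither limit on either array, and 58 and 66 of the 320 blank spots were at least as bright. The arrays thus listed 1 miRNA of the pair. Signals of different probes are not amounts, so these values do not give the ratio of miR-221-3p to miR-222-3p in the cells.

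The other arms of the 6 hairpins were below both limits on both arrays. Of 12 spots, the nearest to a limit was miR-222-5p on the untreated array, at 83.9 units, 0.0875 units under the blank limit. After luteolin the same probe gave 64.9 units, 2.12 blank SDs below the blank mean. A swing of this size, from nearly 2 SDs above to over 2 SDs below the blanks, occurred in a probe that was listed on neither array. The passenger arm of the detected miRNA, miR-221-5p, gave 79.5 and 65.4 units, under the blank mean on both arrays.

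**Figure D2:**
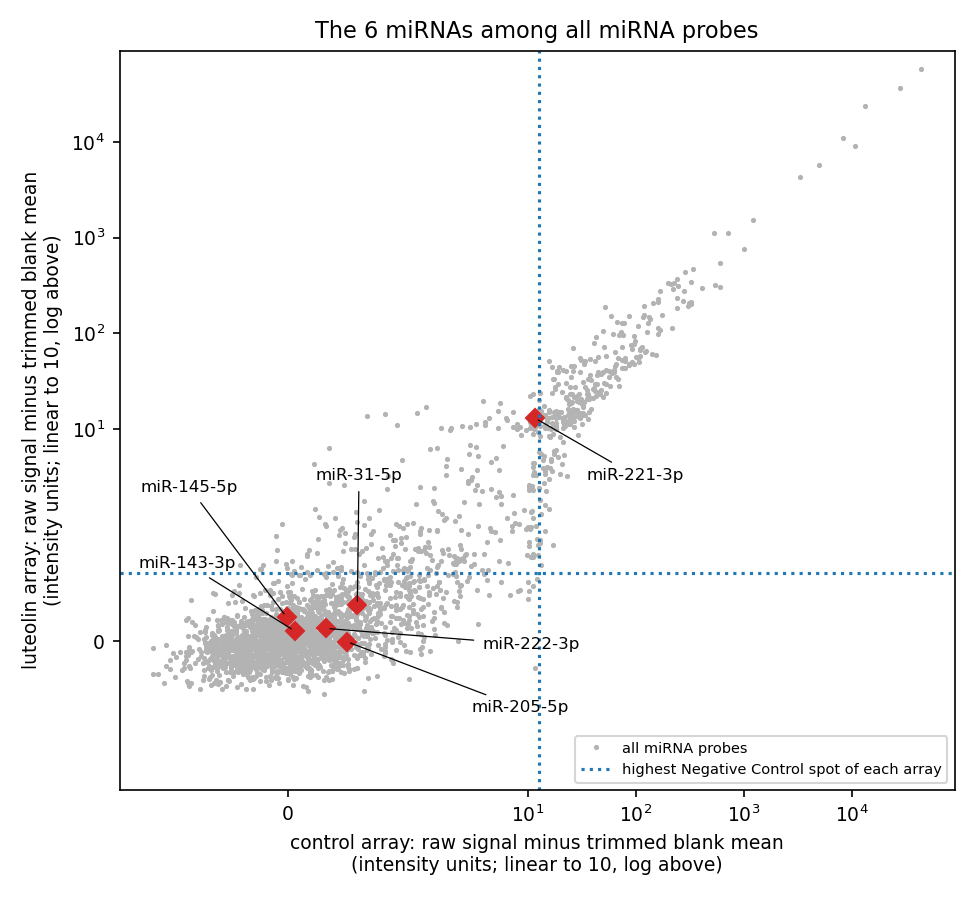
Raw signal minus the trimmed blank mean on the untreated array (x axis) and the treated array (y axis), in intensity units, for all 2565 miRNA probes (grey) and the 6 miRNAs (red diamonds); both axes are linear up to 10 units and logarithmic above. The dotted lines mark the highest Negative Control spot of each array: miR-221-3p lies above it on the treated array and just under it on the untreated array, and the other 5 miRNAs lie in the cloud around 0.

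The comparison of the arrays asks whether the level of these miRNAs differed after luteolin, and miR-221-3p was the member for which it could be given. Its signal above the blank mean was 11.6 units on the untreated array and 13.0 on the treated array. On the scale of the authors' normalized columns (their units are arbitrary) it went from 35.2 to 60.2, a 1.71-fold higher value with a log2 ratio of 0.77 ± 0.24. Since the control signal did not exceed every Negative Control spot, a bound is given too. Set against the brightest Negative Control spot among the untreated, 38.7 on that scale, miR-221-3p was at least 1.55-fold higher after luteolin. The bound takes the authors' scaling as given and leaves out the spot error of miR-221-3p itself.

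By the size rule of a log2 ratio of 1 or more in either direction, miR-221-3p did not qualify on the authors' scale. It did qualify under 3 of the 7 alternatives, with a log2 ratio of 1.09 with median scaling (the files' global normalization without the adjusted column), 1.23 with the Negative Control mean subtracted and 1.59 with the spiked-in controls. Of the 701 miRNAs listed on both arrays, 94 (13.4%) were at least 2-fold higher on the treated array and 36 (5.14%) at least 2-fold lower. That split depended on the scaling: it was 144 and 19 with median scaling, 22 and 165 with no scaling, and 282 and 0 with scaling on the spiked-in control spots. The log2 ratio of miR-221-3p exceeded that of 81.6% of the 701. This rank does not depend on a scaling factor, whereas the size does. The rank did move with the background correction. With the Negative Control mean subtracted, miR-221-3p exceeded 70.8% of the miRNAs that had a ratio. With normexp background correction, an offset of 50 and quantile normalization the share was 85.2%. With blank subtraction and no scaling between the arrays the miR-221-3p fold was 1.12 and its bound 1.02, and with scaling on the spiked-in control spots they were 3.00 and 2.73. The median log2 ratio of the 701 miRNAs was 0.00 on the authors' scale, where the adjusted column places it, -0.61 without scaling and 0.81 with the spiked-in controls. The miR-221-3p log2 ratio was 0.77 above this median on each of these scales. That is fixed by arithmetic, since these scales differ by a constant factor, and adds no evidence. With normexp background correction, an offset of 50 and quantile normalization the log2 ratio was 0.11. The log2 ratio was above 0 under all 7 alternatives. Without scaling it was 0.16, smaller than the standard error of 0.24, which a scaling factor does not change. Its sign on that scale is therefore not clear of the spot error. No standard error was computed for normexp.

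**Figure D3:**
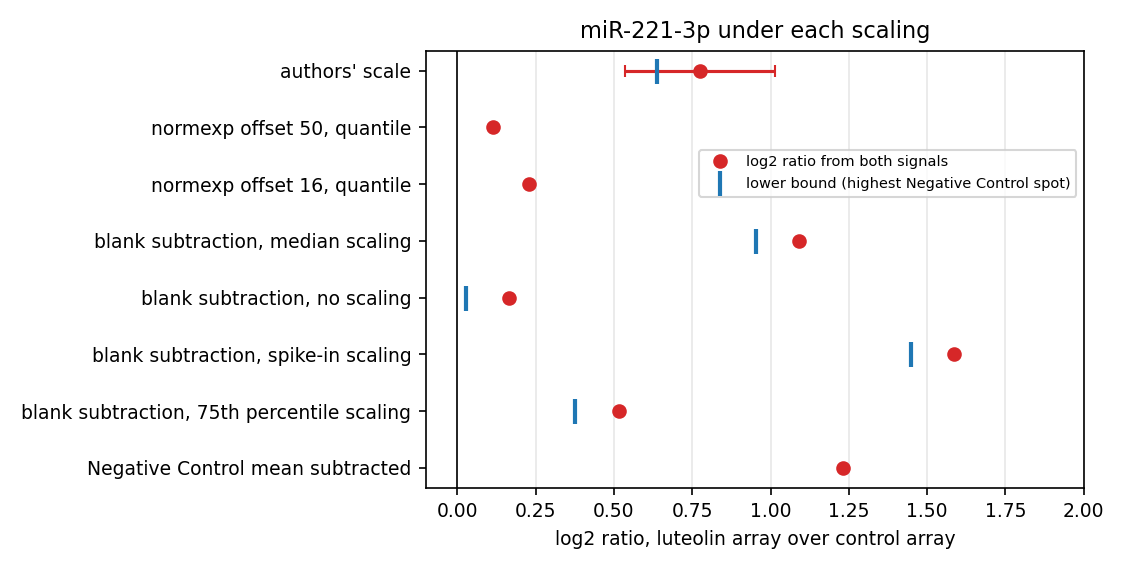
Log2 ratio of miR-221-3p, treated array over untreated array (x axis), on the authors' scale and under each of the 7 alternative scalings (y axis). Red points use the signals of both arrays and the error bar on the authors' scale is the standard error between spots (0.24); blue ticks are the lower bound against the highest Negative Control spot, and all points and ticks lie above 0.

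The miRNAs nearest to miR-221-3p in their pair of levels were found by the Euclidean distance of the log2 values over the 2 arrays, among the other 700 miRNAs listed on both. miR-30e-5p was nearest, at a distance of 0.07, with levels of 35.6 and 63.2 on the authors' scale. miR-128-1-5p followed at 0.19, with 39.4 and 56.5, and miR-6749-5p at 0.20, with 31.8 and 54.9. With 2 arrays this describes the position of miR-221-3p and carries no further meaning.

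Probes with related sequences were set beside the members. miR-4770 and miR-6088 carry the seed of miR-143-3p, and miR-222-3p and miR-221-3p carry each other's. No other miRNA among the 2253 array entries with a RefSeq sequence had the seed of a member. The miR-143 group is shown because 1 of its probes was bright while miR-143-3p was not. miR-4770 lies at chrX:6383907-6383924 on the minus strand and miR-6088 at chr19:45436654-45436673 on the plus strand.
miR-143-3p: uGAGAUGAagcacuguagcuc
miR-4770: uGAGAUGAcacuguagcu
miR-6088: aGAGAUGAagcgggggggcg
miR-6088 gave 112.6 units on the untreated array and 77.4 on the treated array, above every Negative Control spot on both. It has 70.0% G and C, against 47.6% in miR-143-3p, and shares a run of 10 bases with it. miR-4770, which also shares a run of 10 bases with miR-143-3p, gave 82.0 and 66.2 units and passed neither limit. The array entry with the longest run in common with any member was miR-4328, which shares 15 bases with miR-145-5p, and at 77.9 and 65.8 units it lay below the blank means as well.

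The G and C content of the members ran from 47.6% in miR-143-3p to 54.5% in miR-205-5p, with miR-221-3p at 47.8%. The median was 61.9% over the 607 sequenced entries listed on both arrays and 47.6% over the 1295 listed on neither. miR-221-3p was thus listed with a G and C content close to the median of entries not listed. All 6 members were nearer in this respect to the entries listed on neither array than to those listed on both.

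Further markers of muscle and stroma were counted by the same limits. Of 9 muscle and stroma entries (miR-1-3p, miR-133a-3p, miR-133b, miR-206, miR-199a-5p, the probe shared by miR-199a-3p and miR-199b-3p, miR-199b-5p, and both arms of miR-214), 0 passed the blank limit on the untreated array (31.6% of all miRNAs did) and 2 on the treated array (38.4%). The highest Negative Control spot was passed by 0 on either, against 12.1% and 23.1% of all miRNAs. The 2 were miR-214-3p, a miRNA of mesenchymal cells, at 68.0 units, and miR-199b-5p, of the mesenchymal miR-199 family, at 67.4. Both lay inside the range of the Negative Control 1 spots on that array, 66.8 to 69.4.

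Among 4 further miRNAs of basal or squamous epithelium or reported as low in prostate tumours, miR-944, which is encoded within the basal marker gene TP63, gave 79.5 and 64.4 units, and miR-203a-3p, a miRNA of stratified epithelium, 82.3 and 67.2. Neither passed a limit on either array. miR-224-5p was the exception. At 89.8 units on the untreated array and 74.2 on the treated array it exceeded all 320 blank spots on both, and 28 of 32 and 32 of 32 Negative Control spots. Its untreated signal did not exceed every Negative Control spot and a bound against the highest of them would fall under 1, so neither a fold nor a direction is given. miR-452-5p, from the same cluster as miR-224-5p, passed the blank limit on the treated array at 67.4 units and lay inside the range of the Negative Control spots.

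Markers of luminal or epithelial cells were set beside these. The list mixes luminal with general epithelial miRNAs, so its counts do not tell luminal from basal cells. Of 10 luminal or epithelial markers, 7 passed the blank limit on the untreated array (31.6% of all miRNAs did) and 8 on the treated array (38.4%), and 6 (12.1%) and 8 (23.1%) exceeded every Negative Control spot. miR-200c-3p, which holds down ZEB1 in epithelial cells, gave raw signals of 491 units on the untreated array and 362 on the treated array. Raw units of the 2 arrays are not on a common scale, and on the authors' scale its values were 1243 and 1368. Its log2 ratio was 0.14 on the authors' scale and -0.38 with normexp and an offset of 50. miR-375, a miRNA of luminal and neuroendocrine cells, gave 96.0 and 78.7 raw units (45.7 and 58.2 on the authors' scale). miR-429 and miR-183-5p passed neither limit on either array. Blood and endothelial markers passed the blank limit in 2 of 10 cases on each array, against the same 31.6% and 38.4% of all miRNAs. Only 1 of the 10, miR-451a, the erythroid miRNA, passed it on both. The highest Negative Control spot was passed by 1 of 10 on each array (12.1% and 23.1% of all miRNAs), again miR-451a.

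Of 14 other miRNAs reported as low in prostate cancer, 10 passed the blank limit on the untreated array (31.6% of all miRNAs did) and 11 on the treated array (38.4%), and 8 (12.1%) and 11 (23.1%) exceeded every Negative Control spot. On the untreated array let-7c-5p gave 309 units, miR-16-5p gave 294 and miR-23b-3p gave 217. miR-125b-5p, miR-99a-5p and miR-100-5p gave 117, 116 and 108 units there. On the treated array, whose blank mean was lower (66.2 against 81.0 units), they gave 78.9, 86.8 and 87.6 raw units. On the authors' scale their values after luteolin were 0.54, 0.90 and 1.21 times those of the control. Those of let-7c-5p, miR-16-5p and miR-23b-3p were 2.23, 2.33 and 1.59 times the control values. These folds depended on the scaling. With normexp and an offset of 50, the log2 ratios of miR-125b-5p, miR-99a-5p and miR-100-5p were -0.33, -0.14 and 0.00. Those of let-7c-5p, miR-16-5p and miR-23b-3p were 0.47, 0.52 and -0.03. These lists were not compared by a test, and several of their miRNAs are broadly expressed in epithelial cells.

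**Figure D4:**
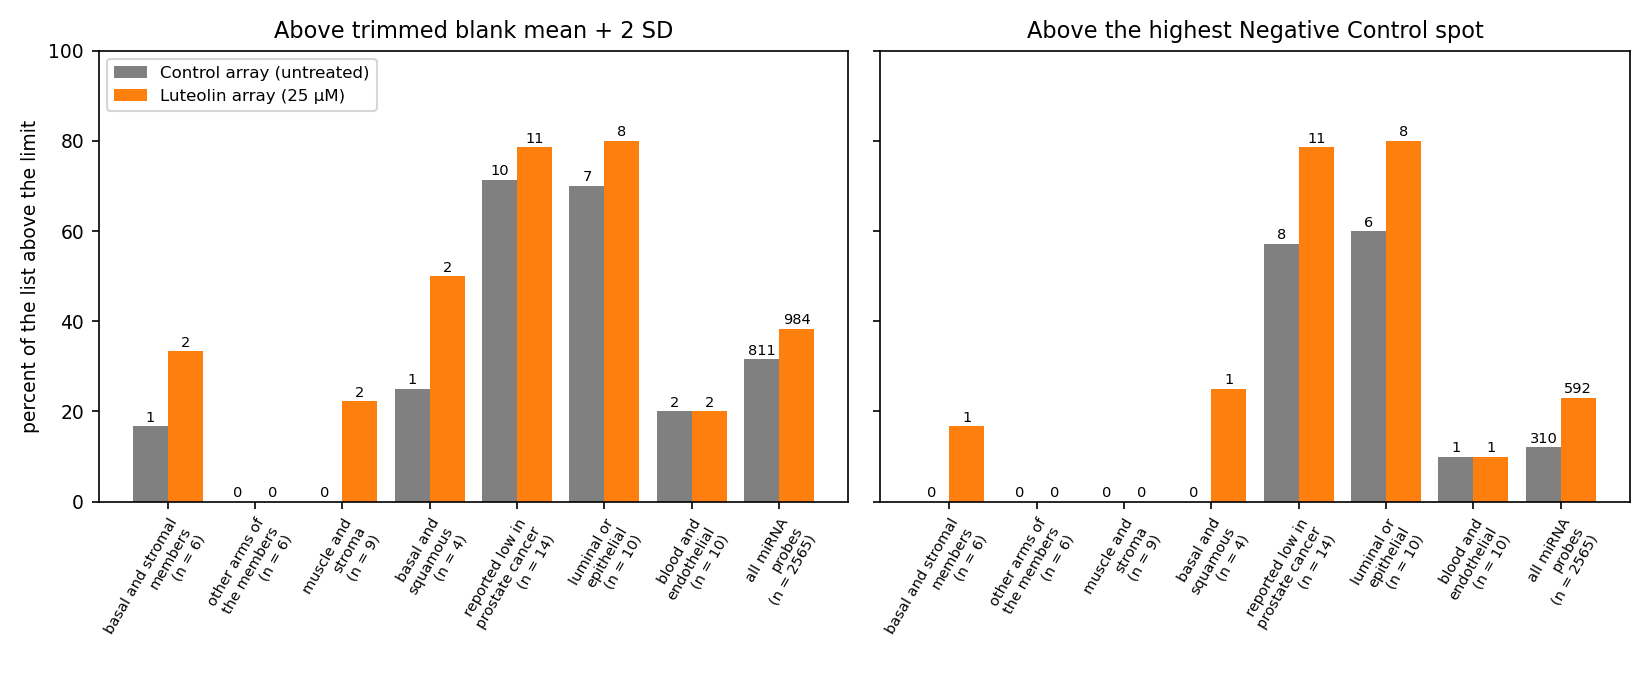
Percent of each list of miRNAs (y axis) above the blank limit (left) and above the highest Negative Control spot (right) on the untreated array (grey) and the treated array (orange), with the number of miRNAs printed over each bar and the list size under it. The 6 members reach 1 and 2 by the blank limit and 0 and 1 by the stricter one, the muscle and stroma list 0 and 2 and then 0 and 0, and the luminal or epithelial list 7 and 8 and then 6 and 8.

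An absent signal here is a limit on what the array could show. On the authors' scale the highest Negative Control spot corresponded to 38.7 on the untreated array and 14.9 on the treated array. A signal below it was not told from the Negative Control spots of its array. The untreated array therefore had the higher limit on that scale. Apart from miR-221-3p, the members lay lower still. The brightest of them, miR-31-5p, was 2.90 units above the blank mean on the untreated array, against 12.8 for that spot. After luteolin it was 1.69 units above, against 3.23. For miR-205-5p, miR-143-3p, miR-145-5p, miR-222-3p and miR-31-5p a difference between the conditions was not detectable under these limits.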

How the data were processed

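MicroRNA levels were measured on 2 arrays, of control cells (untreated) and luteolin-treated cells (treated), with 3200 spots each. The deposited files give intensity on a linear scale: raw data, background subtraction and global normalization, per the file headers, with a further adjusted column for the treated array. The scanner and its software are not given in the sources used here. From the values, the authors subtracted the trimmed blank mean, listed miRNAs above it by over 2 SD (the rule gave their listing for all 2565 miRNAs on both arrays) and multiplied by 3.03 on the untreated array and 5.77 on the treated array. The adjusted column brings the latter factor to 4.63. The deposited summary table equals these columns, with medians of 25.0 and 20.1. The basis of the factors is not stated in the labels or headers. By the values, global normalization gives the listed miRNAs a median of 25.0 on each array. The adjusted column gives the 701 miRNAs listed on both arrays a median log2 ratio of 0.0, so that median comes from the scaling. The authors' scale means global normalization for control and the adjusted column for luteolin.

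Presence limits, ratios and lists were computed with Python 3.11.15, numpy 2.4.6, pandas 2.3.3 and matplotlib 3.10.9, and normexp with limma 3.58.1 in R 4.3.3. The standard error combines the SD of the trimmed blank spots (1.48 and 0.591 units) with the pooled coefficient of variation of repeated spots of 5 bright control probes (7.34% and 6.23%). With the larger SD of all blank spots it would be larger, and distances in blank SDs would be smaller. The blank limit and the blank-subtracted ratio were tested on simulated arrays without Negative Control spots. Differences were put into probes with more signal above the blanks than miR-221-3p had on the untreated array. Ratios were centred on probes known to be unchanged, a set these data do not have. The stricter limit, the bound, the standard error and the authors' scale were not tested in this way. Named miRNAs are the members, their other arms, miRNAs with a member's seed, listed members of the marker lists and the 3 nearest to a member listed on both arrays. Further names were chosen after their values were seen. The members and lists were chosen with earlier results of these data known.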

Additional observations from a re-analysis of the deposited data

Results flagged for a closer look

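Of the 85 spots labelled No Probe, which enter no comparison, 4 were brighter than every Negative Control spot of both arrays, with signals of at least 110 units on the untreated array and 93.1 on the treated array. They are named here because a signal appeared in spots outside the measurement of miRNAs. Nothing in the labels or headers says what these spots hold, and they were not used as a limit of presence.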

How the results depend on the processing

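With 1 array per condition no array could be left out. No paired analysis was possible because each group has 1 sample. Presence against blank spots of the same block was not run, since no block column was used. The limits from the highest blank spot, from the mean plus 2 SD of Negative Control 1 and from the second highest Negative Control spot were chosen after seeing the data. Members present on the untreated array, and on both arrays, numbered 1 (miR-221-3p) by the blank limit and 5 alternatives, and 0 by the highest Negative Control spot and by Negative Control 1. On the treated array the 2 members became 1 (miR-221-3p) under 6 alternatives, and stayed 2 with all blank spots untrimmed. Over all miRNAs, the 811 on the untreated array became 481, 356, 313, 352 and 310 by the highest blank spot, the 95th percentile of the Negative Control spots, Negative Control 1, the second highest and the highest Negative Control spot. For both arrays the 701 became 429, 353, 313, 350 and 310 in the same order. On the treated array the 984 became 520 by the highest blank spot, 555 by Negative Control 1 and 592 by the highest Negative Control spot. The log2 ratio of miR-221-3p, 0.77 on the authors' scale, was 0.11 with normexp and an offset of 50, 0.23 with an offset of 16, 1.09 with median scaling, 0.16 with no scaling, 1.59 with spike-in scaling, 0.51 with 75th percentile scaling and 1.23 with the Negative Control mean subtracted. The authors' scale and the blank-subtracted scalings differ from each other by a constant factor. The cause of the other shifts was not tested. Signal over background limits the other 5 members, whose ratios are not defined.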
